A study of Homo sapiens with 12 samples.

Results

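The genes described here encode RAS GTPases: the classical members HRAS and NRAS and the related members RRAS, RRAS2 and MRAS. They were chosen by name, as classical and related RAS genes, and make up 5 of the 29744 gene rows in the deposited table. Each of the 5 passed the filter on low counts that left 14417 genes for testing. RNA had been sequenced from 4 human breast lines that the series describes as triple-negative, to assess a preparation of several molecule types from 1 sample. Each line gave 3 libraries from biological replicates, which makes 12. The line called A10 is MCF10A, mammary epithelium that does not form tumours and carries no introduced RAS gene. NeoT is MCFNeoT, assigned to benign hyperplasia in the series design and known as a derivative made by introducing a mutant HRAS into MCF10A. T1 (MCFT1) stands for atypical hyperplasia and CA1 (MCFCA1) for invasive cancer; both are known to descend from the HRAS-bearing cells through growth as xenografts in mice, and so to carry the introduced HRAS as well; the labels do not state this lineage. No line was treated, each stage is represented by a single line, and DNA and peptides were taken in the same preparation but are not analysed here.

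RAS proteins are small switches at the inner face of the plasma membrane. They bind GTP in the active state and GDP in the inactive state. Guanine nucleotide exchange factors such as SOS1 load them with GTP, and GTPase-activating proteins such as NF1 speed the return to GDP. In the active state they engage RAF kinases, phosphoinositide 3-kinases and RAL exchange factors, and in breast epithelium growth factor receptors act through them on proliferation and movement. Oncogenic mutations lock the switch on. A lipid added to a cysteine near the end of the protein anchors it to the membrane, and palmitoylation of further cysteines in HRAS and NRAS directs their traffic. RRAS is linked to integrin-mediated adhesion, RRAS2 (also called TC21) to phosphoinositide 3-kinase signalling, and MRAS forms a complex with SHOC2 and protein phosphatase 1 that removes an inhibitory phosphate from RAF kinases.

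The RNA of the members can be told apart by sequence, and the end of the coding region, where the family differs most, is shown for that reason. The lines below give the last 60 coding bases before the stop codon, 5′ to 3′, from the principal coding transcript of each gene in GENCODE release 29 (GRCh38). Capitals mark the last 4 codons, the CAAX box whose cysteine receives the lipid.
HRAS: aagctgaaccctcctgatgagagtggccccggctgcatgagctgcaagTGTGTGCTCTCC
NRAS: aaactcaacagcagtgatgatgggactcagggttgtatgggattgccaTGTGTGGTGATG
RRAS: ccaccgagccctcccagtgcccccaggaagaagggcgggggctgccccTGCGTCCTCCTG
RRAS2: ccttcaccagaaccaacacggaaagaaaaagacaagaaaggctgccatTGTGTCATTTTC
MRAS: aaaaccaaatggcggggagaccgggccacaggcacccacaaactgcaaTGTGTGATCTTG
Each tail has 1 cysteine codon among its last 4. Over all 20 codons shown, HRAS has 3 cysteine codons, NRAS, RRAS and RRAS2 have 2 each, and MRAS has 1. RRAS2 and MRAS have 5 lysine or arginine codons in this stretch, RRAS has 3, HRAS has 2 and NRAS has 1. Across the whole coding sequence HRAS and NRAS were the closest pair, with 73.0% of aligned bases identical, followed by RRAS and RRAS2 with 60.7%, and the other pairs lay between 52.2% and 58.7%. In the tails HRAS and NRAS shared 51.7% of bases and NRAS and RRAS2 23.3%. None of the 31-base words in a member's transcript occurred in the transcript of another member. RRAS2 was the exception with respect to genes outside the set: 334 of its 1486 words (22.5%) also occur in transcripts of other genes, namely SCP2 and AL445183.3. The shared portion was at most 1.44% in the other 4 members. The deposited counts of the 5 genes lay within 0.001 of whole numbers in every library.

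Library totals ranged from 18032399 to 35730423 counts. Several markers that define epithelium were absent or nearly so in NeoT. E-cadherin (CDH1) had a level of 313 ± 16.3 CPM in A10 (CPM, the usual rate of counts relative to the library total, here after TMM scaling between libraries; mean ± SD, n = 3, here and below) and 0.691 ± 0.452 in NeoT. The basal transcription factor TP63 had 107 ± 2.22 CPM in A10 and 0 counts in NeoT, which allows up to 0.0474 CPM (3 counts over its 3 libraries, counting error only). The keratins KRT8 and KRT18 were present in NeoT, at 473 and 329 CPM. Summed over all 8 epithelial markers, A10 had 911.5 to 985.6 CPM, NeoT 750.3 to 866.9, T1 4409 to 4519.5 and CA1 8532 to 9286. Summed over 8 basal mammary markers, TP63 among them, A10 had 8534 to 9456 CPM and NeoT 10932 to 11130. ITGB4 carried most of the NeoT sum, at 9355 CPM against 1061 in A10, and LAMB3 was also higher (1446.5 against 1189). The keratins KRT5, KRT14 and KRT17, COL17A1 and ITGA6 were, like TP63, lower in NeoT. KRT5 had 40.2 CPM against 3346.5 in A10, and COL17A1 0.926 against 1067. Summed over 10 mesenchymal or fibroblast markers, NeoT had 17172 to 20807 CPM, A10 1953 to 2166, CA1 404 to 430.2 and T1 173 to 184. FN1 carried most of the NeoT sum, at 15978 CPM against 1157 in A10. VIM, DCN, ZEB1, CDH2 and COL1A1 were also higher in NeoT than in A10, and LUM was lower. COL1A2, COL3A1 and PDGFRB had line means of at most 0.445 CPM in both. Of 6 leukocyte markers, PTPRC and CD3E had 0 counts in every line, and the sum of the 6, carried by CD14 and CD68, lay between 70.3 and 219.6 CPM. The sum of 4 endothelial markers reached 90.5 CPM and that of 6 adipocyte markers 104.8 CPM at most, with ADIPOQ at 0 counts throughout. Of the receptors that define triple-negative cells, PGR had 0 counts, ESR1 at most 1.204 CPM as a line mean, and ERBB2 58.5 to 202 CPM. This profile is unusual for a derivative of MCF10A and goes against the NeoT label, so the identity of these libraries is in doubt; it was not tested. NeoT below means the libraries so labelled, and that they carry the introduced HRAS rests on the label. Fitted without them, the comparisons among A10, T1 and CA1 kept each member's direction and call, except for NRAS in T1 against A10, given below. NeoT replicate 3 had the lowest agreement with its own replicates (Pearson's r of log2 CPM 0.9776 and 0.9784 across genes, which are not independent replicates), and T1 replicate 1 held 7.76% cytoplasmic ribosomal RNA against 2.18% or less in the other 11 libraries. In bulk RNA, fewer expressing cells and less RNA per cell cannot be told apart.

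The members did not move as a block. HRAS and RRAS were higher in each derived line than in A10, RRAS2 was lower in each, MRAS was lower in T1 and CA1, and NRAS passed the test in none of the 6 comparisons between lines. An edgeR quasi-likelihood test across all genes, with Benjamini-Hochberg adjustment, called a gene at an adjusted p under 0.05. In NeoT against A10 it called 3 of the 5 members, where 70.4% of all tested genes were called; 2 were higher (33.7% of all genes) and 1 was lower (36.7%). In T1 against A10 it called 4 (51.9% of all genes), 2 higher (26.0%) and 2 lower (25.9%). In CA1 against A10 it also called 4 (70.9%), 2 higher (34.4%) and 2 lower (36.5%). For T1 against NeoT it called 4 (67.4%), 1 higher (35.0%) and 3 lower (32.4%). For CA1 against NeoT it called 4 (66.4%), 2 higher (33.8%) and 2 lower (32.7%). For CA1 against T1 it called 3 (62.2%), 2 higher (30.4%) and 1 lower (31.9%). With so few members the counts are not far from these shares, because most genes differed between any 2 of the lines. The replicate libraries did not overlap for 3, 5 and 4 members in NeoT, T1 and CA1 against A10, where 70.7%, 62.0% and 76.9% of all genes showed no overlap. For T1 against NeoT, CA1 against NeoT and CA1 against T1 they did not overlap for 4, 4 and 5 members, beside 68.6%, 67.9% and 71.0% of all genes. The comparisons with A10 share its 3 libraries.

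**Figure D1:**
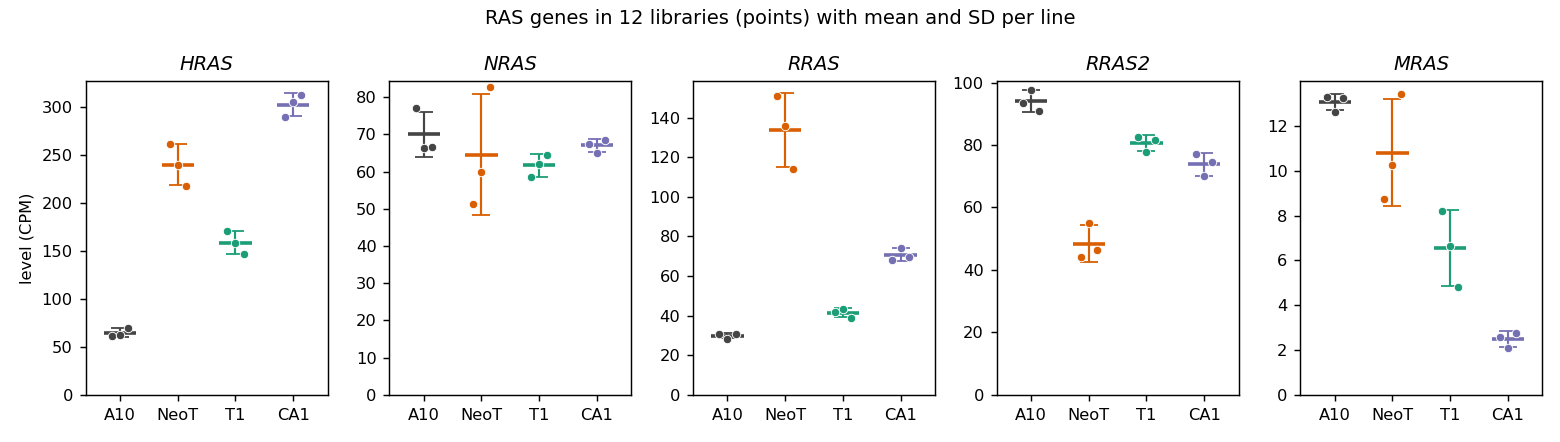
Level (CPM) of each RAS gene in every library (points) with the mean (bar) and SD (whisker) of the 3 libraries of each line; each panel has its own axis from 0. HRAS is lowest in A10 and highest in CA1, RRAS is highest in NeoT, MRAS is lowest in CA1, and NRAS means lie between 61.6 and 70.1 CPM.

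HRAS (chromosome 11, 532242 to 535576, minus strand, GRCh38), the gene whose mutant form was introduced, was the most variable classical member. A10 had 61.7, 61.99 and 69.8 CPM in replicates 1 to 3. T1 had 170.4, 157.5 and 147 CPM. NeoT had 261, 239.5 and 218 CPM, and CA1 had 289, 305 and 312 CPM. No libraries of any 2 lines overlapped, so the order was A10, T1, NeoT and CA1, with the test passed between each neighbouring pair. HRAS was 3.71-fold higher in NeoT than in A10 (log2 1.89, 95% interval 1.72 to 2.06, adjusted p = 2.23e-13), 2.45-fold higher in T1 (1.29, 1.13 to 1.46, adjusted p = 1.19e-10) and 4.68-fold higher in CA1 (2.23, 2.06 to 2.40, adjusted p = 2.64e-14). The smallest step was from NeoT to CA1, 1.26-fold (log2 0.33, 0.17 to 0.50, adjusted p = 8.7e-04). T1 stood 1.51-fold below NeoT (adjusted p = 1.67e-06) and 1.91-fold below CA1 (adjusted p = 7.31e-09). The size of the HRAS difference from A10 exceeded that of 82.0% of tested genes in NeoT, 83.6% in T1 and 85.2% in CA1. Introduced and resident HRAS cannot be told apart, nor can mutant and normal transcripts, since the table has 1 row per gene. In RefSeq the span of LRRC56 covers the HRAS locus; its row never exceeded 1.70 CPM.

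NRAS (chromosome 1, 114704469 to 114716771, minus strand), the other classical member, varied least. A10 had 77.1, 66.4 and 66.7 CPM, T1 58.5, 62.1 and 64.4 CPM, and CA1 67.5, 64.97 and 68.5 CPM. NeoT had 51.3, 59.7 and 82.6 CPM, so its libraries alone spanned the values of every other line. The highest line mean exceeded the lowest by 1.14-fold, a smaller span than in all but 1.54% of the 9337 genes that averaged at least 10 CPM. No pair of lines passed the test by edgeR (0 of 6 also at an unadjusted p under 0.05, and 0 by DESeq2 and by limma-voom), with log2 differences from A10 of -0.12 in NeoT (95% interval -0.39 to 0.14), -0.19 in T1 (-0.45 to 0.07) and -0.07 in CA1 (-0.33 to 0.20). The test among the 4 lines gave an adjusted p of 0.505, while 89.8% of tested genes were called. These intervals bound the difference but do not show equality. The outcome depended on which libraries were fitted. Without NeoT replicate 3 the test among lines gave an adjusted p of 0.00197, with NeoT lower than A10 by a log2 of -0.34 (adjusted p = 5.59e-04). In that fit T1 was lower than A10 (-0.19, adjusted p = 0.0265) and CA1 higher than NeoT (0.27, adjusted p = 0.00486). Without all 3 NeoT libraries, the test among the other lines gave an adjusted p of 0.0423, with T1 lower than A10 by -0.19 (adjusted p = 0.021). A fit of T1 and A10 alone gave -0.19 (adjusted p = 0.0283). The T1 libraries did not overlap those of A10 or of CA1.

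RRAS (chromosome 19, 49635292 to 49640143, minus strand), a RAS relative linked to integrin activation, was lowest in A10 and highest in NeoT. A10 had 30.7, 28.4 and 30.5 CPM and T1 had 41.9, 43.6 and 39.04 CPM. CA1 had 67.97, 74.3 and 69.8 CPM, and NeoT had 151, 135.9 and 114 CPM. The lines did not overlap, and each step in the order A10, T1, CA1, NeoT passed the test. RRAS was 4.48-fold higher in NeoT than in A10 (log2 2.16, 95% interval 1.97 to 2.36, adjusted p = 2.88e-13), 1.39-fold higher in T1 (0.47, 0.28 to 0.67, adjusted p = 2.82e-04) and 2.37-fold higher in CA1 (1.24, 1.05 to 1.44, adjusted p = 8.18e-10). CA1 stood 1.89-fold below NeoT (adjusted p = 3.67e-08) and 1.70-fold above T1 (adjusted p = 7.92e-07). NeoT, the line with the most RRAS, was also the line with the highest summed mesenchymal markers given above, a sum carried mostly by FN1. The part of those markers in the result was not tested.

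RRAS2 (chromosome 11, 14277920 to 14364506, minus strand), the member with the coding sequence nearest to RRAS, ran the other way. A10 had 93.6, 97.7 and 90.8 CPM, T1 82.6, 77.7 and 81.7 CPM, and CA1 77.3, 69.98 and 74.5 CPM. NeoT had 44.1, 55.04 and 46.3 CPM, below every library of the other lines. RRAS2 was 1.94-fold lower in NeoT than in A10 (log2 -0.96, 95% interval -1.13 to -0.78, adjusted p = 5.76e-09) and 1.27-fold lower in CA1 (-0.35, -0.52 to -0.18, adjusted p = 8.32e-04). The 1.17-fold lower level in T1 was small (-0.22, -0.39 to -0.05, adjusted p = 0.0265), and that call was lost without A10 replicate 1, A10 replicate 2, T1 replicate 2 or T1 replicate 3 (adjusted p 0.0522, 0.0897, 0.099 and 0.0536). T1 and CA1, neighbours in the order, did not pass the test (-0.13, -0.30 to 0.04, adjusted p = 0.183), although their libraries did not overlap. SCP2, 1 of the 2 genes that share part of the RRAS2 sequence, stood at 78.5 ± 8.496 CPM in A10 and 66.6 ± 4.30 in NeoT, a log2 difference of -0.24. The level of the other, AL445183.3, was not examined. Over the 12 libraries log2 levels of RRAS and RRAS2 had a Pearson's r of -0.945, which describes libraries grouped in 4 lines and is no test.

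MRAS (chromosome 3, 138347648 to 138405535, plus strand), the partner of SHOC2 and protein phosphatase 1, was the member with the fewest counts and fell furthest in the invasive line. A10 had 13.3, 12.6 and 13.3 CPM from 529, 309 and 367 counts. NeoT had 8.72, 10.3 and 13.4 CPM and T1 had 8.18, 6.65 and 4.82 CPM. CA1 had 2.59, 2.07 and 2.77 CPM from 46, 48 and 66 counts, below every other library. MRAS was 5.28-fold lower in CA1 than in A10 (log2 -2.40, 95% interval -2.85 to -1.95, adjusted p = 9.35e-09), 4.34-fold lower than in NeoT (adjusted p = 6.55e-08) and 2.65-fold lower than in T1 (adjusted p = 1.74e-05). It was 1.99-fold lower in T1 than in A10 (-0.99, -1.39 to -0.59, adjusted p = 2.31e-04). NeoT and A10 overlapped and did not pass the test (-0.28, -0.67 to 0.11, adjusted p = 0.187). That outcome changed without NeoT replicate 3, the NeoT library with the highest MRAS and NRAS, where the difference was -0.46 (adjusted p = 0.0299). In CA1 the size of the difference from A10 exceeded that of 86.5% of tested genes.

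**Figure D2:**
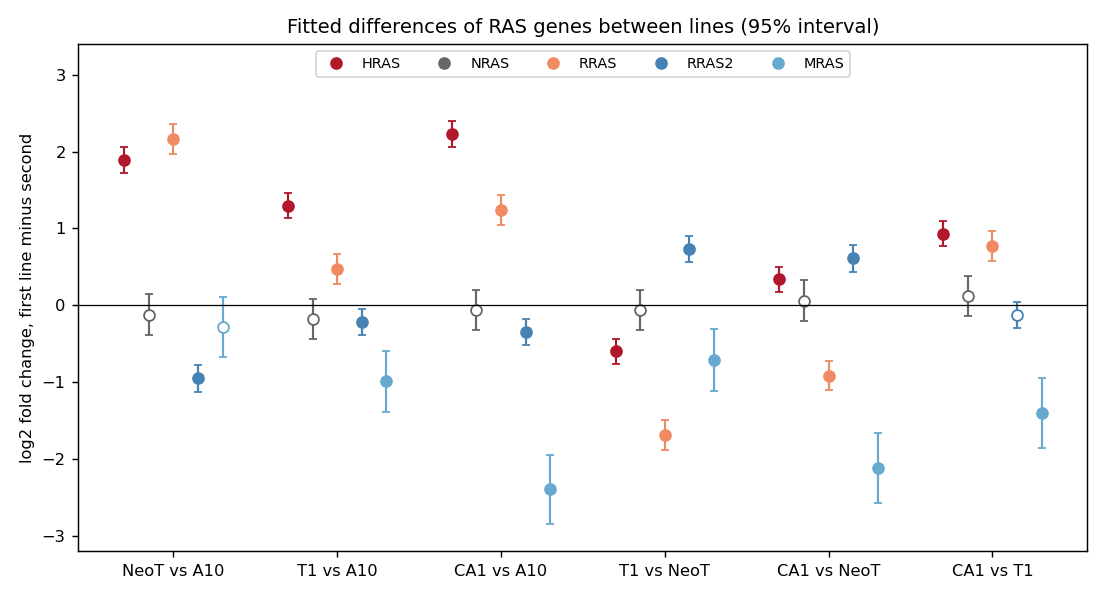
Fitted log2 fold change of each RAS gene in the 6 comparisons between lines, with 95% intervals; filled points have an adjusted p under 0.05 and open points do not. All 6 NRAS intervals include 0, HRAS and RRAS lie above 0 in each comparison with A10, and MRAS reaches -2.40 in CA1 against A10.

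To rank the genes within a line, levels were divided by the length of the principal transcript, which runs from 1.04 kb (RRAS) to 4.54 kb (MRAS). On that scale RRAS2 and HRAS led in A10, with 62.03 ± 2.29 and 56.0 ± 3.98 CPM per kb, followed by RRAS (28.6 ± 1.24), NRAS (15.7 ± 1.36) and MRAS (2.88 ± 0.0818). HRAS led in each derived line, at 208 ± 18.8 CPM per kb in NeoT, 137 ± 10.4 in T1 and 262 ± 10.3 in CA1. RRAS came next in NeoT (128 ± 17.8) and CA1 (67.7 ± 3.09), and RRAS2 came next in T1 (53.2 ± 1.72). Of the length-scaled sum over the 5 genes, A10 libraries gave HRAS 33.9% ± 1.99. In NeoT that share was 54.03% ± 0.731, in T1 55.9% ± 1.54 and in CA1 66.5% ± 0.861. RRAS2 went the other way, from 37.5% ± 1.89 in A10 to 8.34% ± 1.18 in NeoT, 21.7% ± 1.14 in T1 and 12.4% ± 0.866 in CA1. Summed, the 5 genes came to 165 ± 2.25 CPM per kb in A10, 385 ± 32.1 in NeoT, 246 ± 11.7 for T1 and 394 ± 10.5 for CA1. Transcript choice bears on the order between genes, since coding transcripts of RRAS2 range from 497 to 2034 bases and those of MRAS from 271 to 4538, of which the longest was used for MRAS. It cancels when 1 gene is compared between lines, as far as they use the same transcript. For HRAS this was not checked, since introduced and resident transcripts fall in the same row.

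**Figure D3:**
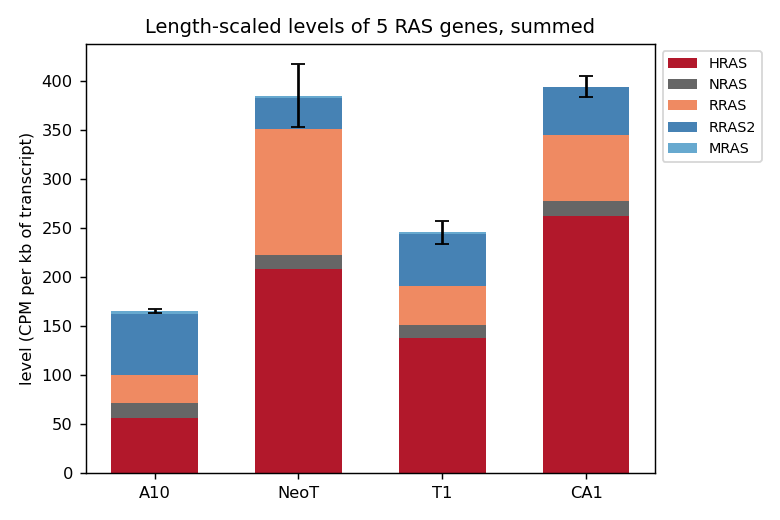
Mean length-scaled level (CPM per kb of principal transcript) of the 5 RAS genes stacked by line, with the SD of the sum over 3 libraries. The HRAS segment grows from 56.0 in A10 to 262 in CA1, and MRAS is barely visible in every line.

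The ratio of counts within a library does not depend on scaling between libraries. HRAS had 0.927 ± 0.123 counts per NRAS count in A10, 3.91 ± 1.23 in NeoT, 4.51 ± 0.213 in CA1 and 2.58 ± 0.320 in T1. The lowest NeoT library (log2 ratio 1.40) was still above the highest A10 library (0.07). Against MRAS the ratio went from 4.94 ± 0.312 in A10 to 124 ± 20.3 in CA1. Against RRAS it was 2.16 ± 0.139 in A10, 1.80 ± 0.0950 in NeoT, 4.28 ± 0.181 in CA1 and 3.81 ± 0.232 in T1. The counts were not divided by transcript length, so the ratios compare lines and do not rank the genes. These ratios are given as descriptions with no test.

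To see whether genes beside the members on the chromosome differed in the same way, for each member the 5 nearest tested protein-coding genes on either side were taken, with positions from RefSeq (GRCh38.p14). The 10 neighbours of HRAS lie within 115 kb and had a median log2 fold change of -0.06 in NeoT, 0.41 in T1 and -0.11 in CA1 against A10, beside 1.89, 1.29 and 2.23 for HRAS itself. They ranged from -3.75 to 3.77 in NeoT and from -1.97 to 3.06 in CA1, and 1, 2 and 1 of the 10 had a higher value than HRAS in NeoT, T1 and CA1. LRRC56, which spans HRAS, fell by 2.27 on the log2 scale in NeoT (adjusted p = 0.00565), and C11orf35, at 19.3 kb, rose by 1.03 (adjusted p = 0.0112). For RRAS, whose 10 neighbours lie within 143 kb, none of the 10 rose as far in NeoT (highest 1.44) or in CA1 (highest 0.34). In T1 RRAS had 0.47 beside a neighbour median of 0.435, 7 of the 10 rose and 4 lay above RRAS. Its nearest neighbours SCAF1 and PRR12 had log2 differences of 0.48 and 0.51 in NeoT. The 10 neighbours of NRAS had a median of -0.30 in NeoT, where DENND2C, 34.4 kb away, fell by 3.12 (adjusted p = 7.75e-10).

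RRAS2 had a log2 fold change of -0.96 in NeoT. Its 10 neighbours, which reach to 1601.9 kb, had a median of -0.84 and went from -6.66 to 0.54. Of these, 5 lay above RRAS2, 4 were called lower and 1 was called higher. None had a value between -1.48 and -0.20, the gap in which the median lies. FAR1, the nearest gene on 1 side, fell by 1.48 in NeoT (adjusted p = 7.28e-11) and COPB1, the nearest on the other, rose by 0.54 (adjusted p = 6.03e-06). In T1 and CA1 the neighbours of RRAS2 had medians of -0.04 and 0.06. MRAS in CA1 had -2.40, while its nearest neighbours had 0.56 (ARMC8, adjusted p = 3.33e-04) and 1.07 (ESYT3, adjusted p = 0.0801). The 10 neighbours of MRAS ranged from -4.53 to 1.07 in CA1 with a median of 0.25, and 8 of the 10 lay above MRAS. Copy number was not measured in these files.

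**Figure D4:**
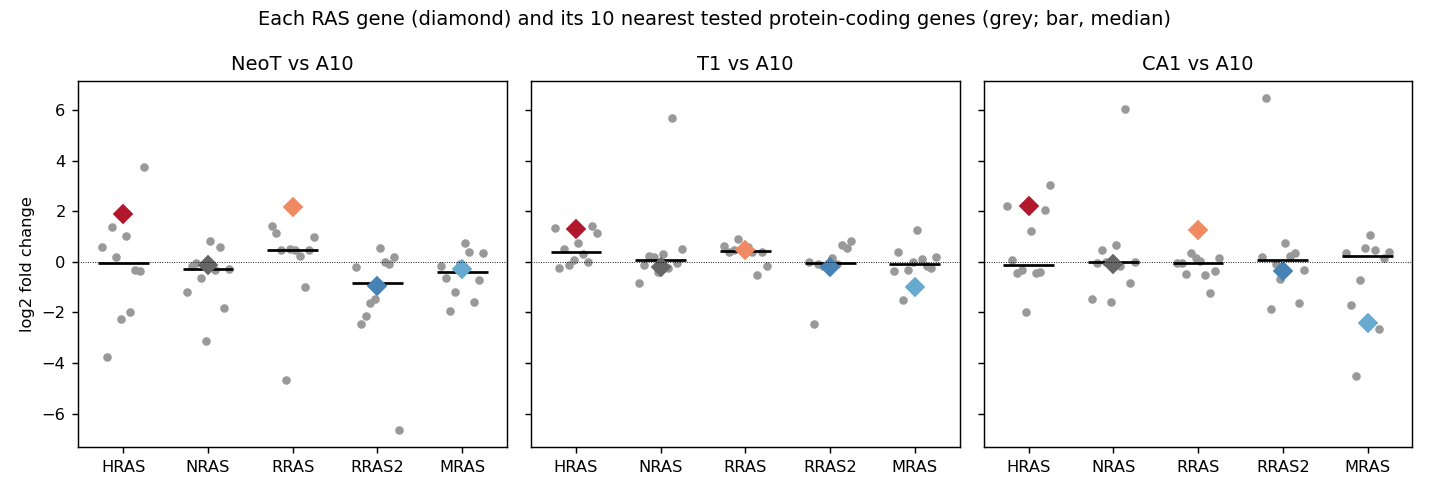
Log2 fold change against A10 of each RAS gene (diamond) and of its 10 nearest tested protein-coding genes (grey points, in chromosome order; bar, median). HRAS and RRAS stand above their neighbours' medians in NeoT and CA1, and MRAS stands below in CA1. The neighbours of RRAS2 in NeoT have a median of -0.84 and leave a gap between -1.48 and -0.20.

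The genes whose log2 levels followed each member most closely over the 12 libraries were sought among 10100 protein-coding genes with at least 10 CPM in some line. HRAS was followed by UBE2R2, a ubiquitin-conjugating enzyme (Pearson's r = 0.993), TMED3, a cargo protein of the early secretory pathway (0.992), and DUSP4, a nuclear phosphatase of MAP kinases (0.989). DUSP4 stood at 109 CPM in A10, 1093 in NeoT, 452 for T1 and 1220.3 for CA1 as line means. RRAS was followed by DUSP6, a cytoplasmic phosphatase of ERK (0.995), ITFG3 (0.993) and BLVRB, biliverdin reductase B (0.993). RRAS2 was followed by BNC1, a zinc finger protein of basal epithelium (0.983), SH3RF2 (0.983) and ARID1A, a chromatin remodeller (0.981). Without NeoT, BNC1 had 0.973, SH3RF2 0.93 and ARID1A 0.849. MRAS was followed by TRIM37 (0.982), FAR2 (0.981) and DR1 (0.981). For NRAS the best values were lower, 0.885 for PIGU and ARMC1 and 0.864 for VPS54, and PIGU and VPS54 dropped to 0.687 and 0.565 without NeoT. As many as 111 genes had an r over 0.95 with HRAS and 182 with RRAS. With 12 libraries that fall into 4 lines, high values arise for any genes ordered alike, so they describe and do not test.

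The regulators and targets of RAS were described with 8 lists holding 110 genes, of which 91 were tested. Over the 8 lists 72.5% of tested genes were called in NeoT against A10, 49.5% in T1 and 73.6% in CA1, close to the 70.4%, 51.9% and 70.9% of all genes.

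Of 8 exchange factors, which load RAS with GTP, 4 were tested. In NeoT 1 rose and 2 fell, in T1 2 rose and 1 fell, and in CA1 1 rose and 0 fell. RASGRF2 gave the rise in NeoT and 1 of the rises in T1, and RASGRF1 gave 1 of the falls in NeoT and the fall in T1. Both were scarce, with line means of at most 1.455 CPM for RASGRF2 and 1.267 CPM for RASGRF1. SOS1 stood at 43.7 ± 4.31 CPM in A10, 39.6 ± 9.95 in NeoT, 52.1 ± 1.40 in CA1 and 59.1 ± 0.865 in T1; it rose in T1 against A10 (1.35-fold, adjusted p = 0.00673); in NeoT and CA1 the adjusted p was 0.312 and 0.0774. SOS2 fell in NeoT (0.795 of the A10 level, adjusted p = 0.0204) and rose in CA1 (1.62-fold, adjusted p = 3.39e-05). The exchange factors RASGRP1 to RASGRP4 were not tested, and the highest value of RASGRP1 in any library was 0.432 CPM.

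GTPase-activating proteins switch RAS off. Of 10 tested, 5 rose and 4 fell in NeoT, 4 rose and 0 fell in T1, and 6 rose and 3 fell in CA1, with median log2 fold changes of 0.18, 0.20 and 1.30. Over all genes these medians were -0.042, -0.007 and -0.023. RASA1, the GAP that binds activated receptors, went from 54.1 ± 5.13 CPM in A10 to 39.2 ± 3.31 in NeoT, 132 ± 4.50 in T1 and 401 ± 11.4 in CA1, a 2.44-fold rise in T1 (adjusted p = 8.12e-11), a 7.42-fold rise in CA1 (adjusted p = 5.16e-16) and a fall in NeoT (adjusted p = 3.36e-05). RASAL1, a calcium-responsive GAP, stood at 0.687 ± 0.156 CPM in A10 and 0.0871 ± 0.116 in NeoT, but at 39.7 ± 3.62 in T1 and 40.95 ± 0.696 in CA1, 59.1-fold and 60.9-fold above A10 (adjusted p = 9.41e-15 and 3.36e-15), and fell in NeoT (adjusted p = 6.89e-05). RASA3, a GAP regulated by inositol phosphates, was 5.72-fold higher in NeoT (119 ± 15.2 against 20.95 ± 1.77 CPM, adjusted p = 1.44e-13) and did not pass the test in T1 (adjusted p = 0.442). In CA1 RASA3 fell, to 0.791 of A10 (adjusted p = 0.00891).

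Of 11 adaptors and direct regulators, 3 rose and 3 fell in NeoT, 4 and 3 in T1, and 3 and 4 in CA1, with medians of -0.19, -0.07 and -0.07. SHC1, an adaptor that couples receptors to GRB2, went from 867 ± 23.3 CPM in A10 to 2215 ± 240 in NeoT, 535 ± 12.7 in T1 and 321 ± 19.1 in CA1, higher in NeoT (2.56-fold, adjusted p = 5.6e-12) and lower in T1 and CA1 (adjusted p = 1.39e-07 and 2.98e-12). GRB2, which brings SOS proteins to receptors, was lower in NeoT (0.616 of the A10 level, adjusted p = 4.47e-07) and CA1 (0.770, adjusted p = 4.63e-04). SPRED2, which recruits the GAP NF1 to the membrane, was 1.37-fold higher in T1 (adjusted p = 4.54e-05) and 1.79-fold higher in CA1 (adjusted p = 9.92e-09), and fell in NeoT to 0.876 of A10 (adjusted p = 0.0315).

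Of 5 genes of the MRAS partner complex, 1 rose and 2 fell in CA1, where MRAS fell. SHOC2, the scaffold of the complex, stood at 37.3 ± 5.41 CPM in A10 and 38.3 ± 1.14 in CA1 (1.02-fold, adjusted p = 0.817), and the test among lines gave an adjusted p of 0.0816. Of the catalytic subunits of protein phosphatase 1, PPP1CA was lower in CA1 (0.735 of A10, adjusted p = 9.98e-06), PPP1CC was higher (1.62-fold, adjusted p = 1.33e-06), and PPP1CB did not pass (0.869, adjusted p = 0.129). SCRIB, a polarity protein reported in this complex, was lower in each derived line, at 0.467, 0.782 and 0.715 of A10 in NeoT, T1 and CA1 (adjusted p = 3.12e-09, 0.00252 and 8.85e-05). In NeoT 3 of the 5 genes fell and 1 rose, with a median log2 fold change of -0.71.

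Of 13 genes for enzymes and carriers that attach, remove or move the lipid-bearing end of RAS, all 13 were tested: 4 rose and 5 fell in NeoT, 4 rose and 1 fell in T1, and 5 rose and 4 fell in CA1, with medians within 0.06 of 0. ZDHHC9, part of the palmitoyltransferase that acts on HRAS and NRAS, was higher in each derived line, at 53.4 ± 0.751 CPM in A10, 108 ± 7.12 in NeoT, 93.4 ± 3.05 in CA1 and 76.7 ± 4.14 in T1 (2.01-fold, 1.44-fold and 1.75-fold in NeoT, T1 and CA1, adjusted p = 3.18e-10, 4.72e-06 and 8.09e-09). ICMT, which methylates the lipid-bearing cysteine, was 0.454 of A10 in NeoT and 0.630 in CA1 (adjusted p = 7.01e-11 and 1.16e-07) and 1.18-fold higher in T1 (adjusted p = 0.00863). ABHD17C, a depalmitoylase, fell in NeoT (0.310 of A10, adjusted p = 3.38e-11) and rose in T1 (1.45-fold, adjusted p = 7.43e-05) and CA1 (1.86-fold, adjusted p = 7.14e-08).

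Effectors and kinases of the ERK cascade rose and fell in similar numbers: 7 and 8 of 19 tested in NeoT, 4 and 4 in T1, and 8 and 6 in CA1. MAP2K1, a kinase directly above ERK, fell in CA1 to 0.381 of A10 (49.3 ± 2.17 against 129 ± 3.65 CPM, adjusted p = 1.04e-12), in NeoT to 0.541 (adjusted p = 5.01e-10) and in T1 to 0.897 (adjusted p = 0.0428). MAP2K2, the other kinase at that step, did not fall. It was 1.51-fold higher in NeoT (adjusted p = 1.06e-04) and did not pass the test in T1 or CA1 (adjusted p = 0.719 and 0.878). RALGDS, the exchange factor that links RAS to RAL, rose 3.14-fold in CA1, to 153 ± 5.74 from 48.9 ± 3.07 CPM (adjusted p = 5.78e-13), and fell to 0.867 of A10 in NeoT (adjusted p = 0.0207) and 0.879 in T1 (adjusted p = 0.043). AFDN (afadin), a RAS-binding junction protein listed in the table as MLLT4, fell in NeoT to 0.477 of A10 (adjusted p = 5.55e-09) and rose 1.22-fold in T1 (adjusted p = 0.00937) and 1.65-fold in CA1 (adjusted p = 7e-07).

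Among 30 other GTPases of the RAS branch 19 were tested, and 3 rose and 8 fell in NeoT, 4 and 4 in T1, and 7 and 7 in CA1. RAP2B, a RAP GTPase, fell to 0.231 of A10 in NeoT (35.3 ± 2.95 against 153 ± 3.12 CPM, adjusted p = 2.2e-14) and to 0.465 in CA1 (adjusted p = 1.48e-10). RHEB, the activator of mTORC1, rose 1.41-fold in CA1 (adjusted p = 3.93e-06) and fell in NeoT to 0.822 of A10 (adjusted p = 0.00155). RASD2, a RAS-related GTPase, stood at 13.01 ± 0.486 CPM in T1 against 0.287 ± 0.181 in A10 (46.4-fold, adjusted p = 6.78e-11) and rose 5.65-fold in CA1 (adjusted p = 5.09e-06).

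Of 10 genes that report ERK output, 9 rose and 0 fell in NeoT against A10, 8 rose and 1 fell in T1, and 9 rose and 1 fell in CA1, with median log2 fold changes of 1.19, 1.08 and 1.59. That these genes rose was known from earlier results of these data. PHLDA1 stood at 385 ± 11.98 CPM in A10, 709.5 ± 29.04 in NeoT, 2313 ± 6.89 in CA1 and 831 ± 29.3 in T1, and DUSP4 rose 10.02-fold, 4.14-fold and 11.2-fold in NeoT, T1 and CA1 (adjusted p = 9.88e-19, 1.52e-15 and 1.87e-18).

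**Figure D5:**
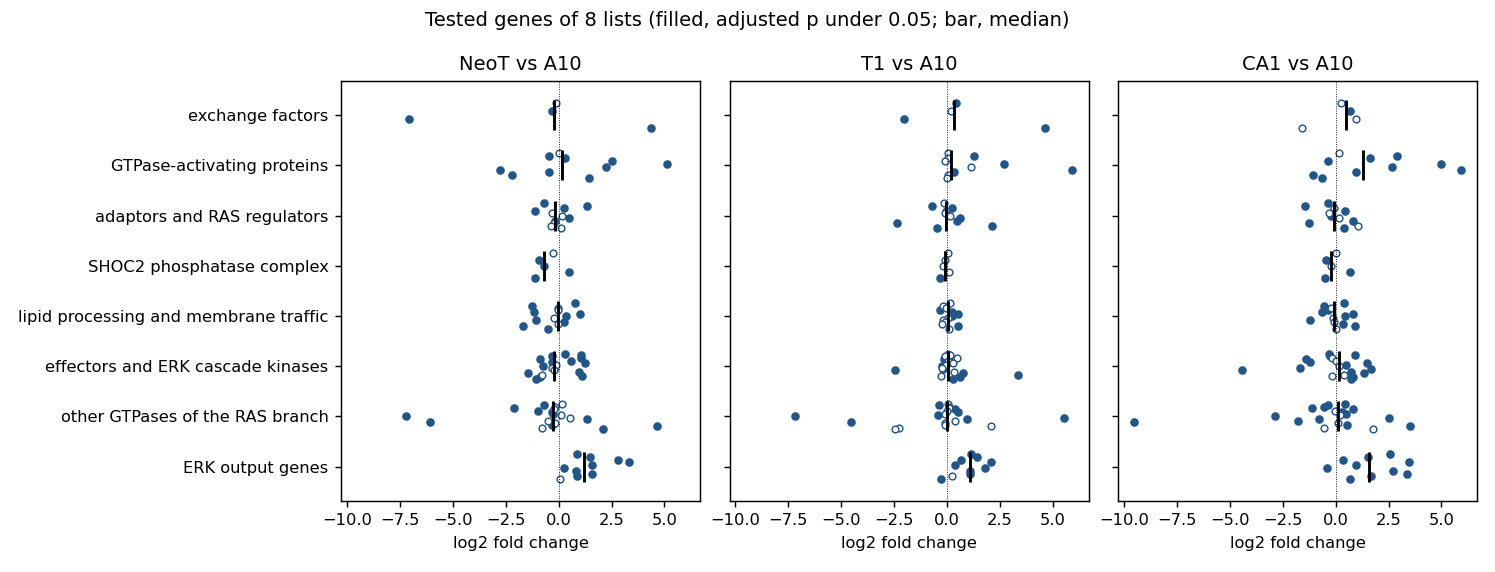
Log2 fold change against A10 of the tested genes in 8 lists of RAS regulators, relatives and targets; filled points have an adjusted p under 0.05 and bars are list medians. The ERK output genes have medians of 1.19, 1.08 and 1.59, GTPase-activating proteins reach 1.30 in CA1, and the other lists have medians between -0.71 and 0.48.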

How the data were processed

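Sequencing libraries came from DNase-treated total RNA and the NEBNext Ultra kit, per the labels' protocols. The authors deposited estimated counts (expected counts) per gene, not scaled between libraries and made by Salmon as the table is named; GRCh38 and limma are named without a role, per the submitters' processing notes, while which annotation and versions were used is not given in the sources used here. The kit is not stated to keep strand. Values were rounded to whole counts. Genes were filtered with filterByExpr, scaled with TMM factors and fitted with edgeR 4.0.16 (R 4.3.3) as a robust quasi-likelihood model with a mean per line over all 12 libraries, whose spread the lines share (biological coefficient of variation 10.4%). Tests were two-sided and adjusted over 14417 genes, and SEs of log2 fold changes came from the F statistic. p-values measure the spread between replicate cultures of 1 line each. List medians were the same with genes at 0 in a line placed at the level of 3 counts. The code was tested on simulated counts.

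Members, lists and tests were chosen with earlier results of these data known. Named from each list were up to 3 genes (2 for ERK output) with the smallest p among lines and at least 10 CPM in a line, and all 5 of the SHOC2 list; by likeness, 3 genes per member; and the nearest neighbour on each side, of which 1 is not reported here. Other settings tried were the RLE and the upper-quartile scalings, no low-count filter, a filter of 1 CPM in at least 3 libraries, DESeq2 (1.42.0), voom from limma 3.58.1, a fit of only the compared lines, a block for replicate number, leaving out each library, leaving out NeoT, dropping ribosomal RNA rows, leaving out T1 replicate 1 with NeoT replicate 3, and glmTreat against 2-fold. Protein sequences were not used here.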

Additional observations from a re-analysis of the deposited data

How the results depend on the processing

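Outside the test against a 2-fold change, 26 of 35 member results (30 comparisons and 5 tests among lines) kept their direction and their side of the threshold in each of the 22 or 23 alternatives run. Of the 9 that changed, 6 were those of NRAS, and the others were RRAS2 in T1 against A10, RRAS2 in CA1 against T1 and MRAS in NeoT against A10. With 1 library left out at a time, the log2 difference of NRAS ran from -0.34 to 0.01 in NeoT against A10, -0.22 to -0.11 in T1 against A10, -0.10 to 0.01 in CA1 against A10, -0.20 to 0.15 in T1 against NeoT and -0.08 to 0.27 in CA1 against NeoT. It turned sign without A10 replicate 1 (CA1 against A10, 0.0083), without NeoT replicate 1 (0.0143 in NeoT against A10 and -0.0814 in CA1 against NeoT) and without NeoT replicate 3 (0.1519 in T1 against NeoT). The adjusted p of NRAS among lines ran from 0.00197 to 0.779. RRAS2 in T1 against A10 ran from -0.25 to -0.19 and MRAS in NeoT against A10 from -0.46 to -0.15. Without both T1 replicate 1 and NeoT replicate 3, NRAS had -0.33 in NeoT against A10, 0.18 in T1 against NeoT, 0.25 in CA1 against NeoT and an adjusted p of 0.00545 among lines, and MRAS had -0.45 in NeoT against A10. Without the NeoT libraries NRAS had -0.19 in T1 against A10 (adjusted p = 0.021) and 0.0423 as adjusted p among lines. In a fit of only the 2 lines compared, NRAS in T1 against A10 (-0.19, adjusted p = 0.0283) and RRAS2 in CA1 against T1 (-0.13, adjusted p = 0.0461) passed. Upper-quartile scaling turned NRAS in CA1 against NeoT to -0.0106. The cause of these changes was not tested.

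Against a 2-fold change 8 member comparisons passed. Those that passed the ordinary test and not this one were RRAS2 in NeoT (-0.96), T1 (-0.22) and CA1 (-0.35), RRAS (0.47) and MRAS (-0.99) in T1 against A10; HRAS (-0.60), RRAS2 (0.73) and MRAS (-0.71) in T1 against NeoT; HRAS (0.33), RRAS (-0.92) and RRAS2 (0.61) in CA1 against NeoT; and HRAS (0.93), RRAS (0.77) and MRAS (-1.41) in CA1 against T1. The 91 tested list genes then gave 21, 13 and 24 calls in NeoT, T1 and CA1 against A10, 26 in T1 against NeoT, 24 in CA1 against NeoT and 22 in CA1 against T1, and all genes gave 3561, 1699, 3612, 3121, 3378 and 2014 in that order. No strong pairing of libraries by replicate number was seen. Deviations of same-numbered libraries correlated between -0.069 and 0.088, and those of other numbers between -0.106 and 0.083. In 16 of 36 cases a library correlated best with its own number, a count that was not tested against chance. With the replicate block, 9981, 7269 and 10059 genes were called in NeoT, T1 and CA1 against A10 in place of 10144, 7478 and 10224, HRAS in NeoT against A10 had 1.89, and no call of a member changed. Depth limits MRAS most, with 46 to 66 counts in CA1.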
